A study of Mus musculus with 2 samples.

Results

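The genes described here are 52 genes of DNA replication and of the passage from G1 into S phase of the cell cycle, out of 27238 genes named on the array. They were chosen by name, for their role. A spot counted for a gene when its name in the file, or the current symbol of its RefSeq accession, was on the list. All 52 genes had a probe, with 65 probes in 83 spots between them.

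Before a cell copies its DNA, the origin recognition complex, Cdc6 and Cdt1 load the Mcm helicase onto replication origins, a step called licensing. In S phase the helicase is switched on, primase and the replicative polymerases make new strands behind a sliding clamp, and DNA ligase joins the pieces of the lagging strand. Entry into S phase is governed by D-type cyclins and their kinases, which phosphorylate the retinoblastoma protein and free E2F transcription factors, and CDK inhibitors hold this step back. Circulating monocytes are known mostly as non-dividing cells, and some tissue macrophages can divide in place.

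Arrays read in 2 colours compared a pool of CX3CR1high CD11b+ CD11c+ cells with a pool of Ly6c+ CD11b+ monocytes. The first, called the colon pool, was isolated from large intestinal lamina propria, the tissue layer beneath the gut epithelium. Its donors were CX3CR1gfp/+ mice, which carry green fluorescent protein in 1 allele of the fractalkine receptor gene. The second, called the blood pool, came from the blood of C57BL/6J mice. The submitters list n = 10 for the CX3CR1high cells and n = 6 for the monocytes, with no unit for n. Tissue, cell type, genotype and pool change together between the 2 samples and cannot be told apart. The same 2 pools were hybridised on 2 arrays with the dyes swapped, which makes 1 replicate: array 1 had the colon pool in Cy5 and array 2 had it in Cy3. No test between the pools was possible, no p-value is given, and each SD is over the 2 arrays and covers technical error alone.

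Between 52.2% and 58.5% of probes were well above background in each pool on each array, and no spot was saturated. Intensities are given in arbitrary units after background correction and within-array loess normalization, and hold an added offset of 50 that pulls the ratios of dim genes towards 0. They compare the pools for 1 probe and not one gene with another. Every ratio is given on the log2 scale as colon over blood. To count as measured, a gene needed 1 and the same pool to stand well above background on each array. It was called higher when its log2 ratio was at least 1 (2-fold) on each array, and lower when it was at most -1 on each, and in both cases the brighter pool had to clear the background on each array.

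E2F factors bind promoters of many replication genes, so the sequence at the start of these genes is shown before their levels. RefSeq promoter windows of 300 bases, 250 before the annotated start and 50 after it (GRCm38.p6), were matched by symbol for 41 of the 52 genes. They were searched on both strands for the 8-letter words TTTCCCGC, TTTCGCGC, TTTGCCGC and TTTGGCGC, the E2F consensus written out, and words on opposite strands may overlap. A gene counted when any of its windows held a word. The windows below are those of 3 genes called higher with a word in the window (Mcm6, Mcm7 and Uhrf1), of Mcm3, a helicase subunit just under the threshold, and of E2f2, which was called lower. They read 5′ to 3′ on the strand of the gene, and capitals mark the E2F words on either strand.
Mcm6 (chr1:128359656-128359955, minus strand): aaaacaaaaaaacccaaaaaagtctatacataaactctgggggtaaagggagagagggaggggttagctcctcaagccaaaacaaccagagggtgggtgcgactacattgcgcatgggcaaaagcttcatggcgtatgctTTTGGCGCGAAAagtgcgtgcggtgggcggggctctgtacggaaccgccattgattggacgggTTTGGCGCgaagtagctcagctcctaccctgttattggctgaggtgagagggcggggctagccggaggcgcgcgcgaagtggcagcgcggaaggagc
Mcm7 (chr5:138171834-138172133, minus strand): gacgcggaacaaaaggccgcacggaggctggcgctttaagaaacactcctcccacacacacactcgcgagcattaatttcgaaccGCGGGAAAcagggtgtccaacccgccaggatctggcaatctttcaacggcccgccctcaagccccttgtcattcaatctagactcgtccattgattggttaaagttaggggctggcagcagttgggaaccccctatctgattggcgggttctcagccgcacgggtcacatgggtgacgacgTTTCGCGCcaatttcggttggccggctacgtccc
Uhrf1 (chr17:56304063-56304362, plus strand): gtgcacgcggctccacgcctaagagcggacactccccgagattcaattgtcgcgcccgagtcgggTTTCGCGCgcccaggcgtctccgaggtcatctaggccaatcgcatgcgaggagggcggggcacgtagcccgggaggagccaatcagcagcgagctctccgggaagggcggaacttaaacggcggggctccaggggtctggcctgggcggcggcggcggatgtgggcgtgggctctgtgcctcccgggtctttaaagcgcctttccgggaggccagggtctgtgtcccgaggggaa
Mcm3 (chr1:20820263-20820562, minus strand): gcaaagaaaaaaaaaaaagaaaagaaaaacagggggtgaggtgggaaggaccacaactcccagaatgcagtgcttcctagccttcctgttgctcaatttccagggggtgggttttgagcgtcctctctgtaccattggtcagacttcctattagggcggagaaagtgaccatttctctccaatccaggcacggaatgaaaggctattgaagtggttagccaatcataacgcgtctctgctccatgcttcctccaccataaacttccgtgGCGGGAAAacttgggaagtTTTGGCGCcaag
E2f2 (chr4:136172024-136172323, plus strand): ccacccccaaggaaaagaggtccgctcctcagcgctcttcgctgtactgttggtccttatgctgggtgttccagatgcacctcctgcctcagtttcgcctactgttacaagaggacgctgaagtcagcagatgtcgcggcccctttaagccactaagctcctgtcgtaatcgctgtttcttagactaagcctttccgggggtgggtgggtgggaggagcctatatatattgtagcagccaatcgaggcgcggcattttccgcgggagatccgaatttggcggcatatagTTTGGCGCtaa
Mcm6 held 3 words, 2 of them overlapping on opposite strands from position -110 relative to the start, shown as 1 run of capitals, and the third at position -47. Mcm7 and Mcm3 held 2 words each, and Uhrf1 and E2f2 held 1 each. Mcm7, Uhrf1 and E2f2 had 2 windows each, and the window not shown held no E2F word.

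An E2F word was present in 16 of the 41 genes (39%), against 704 of 27025 genes with a window (2.6%) and 744 of all 32851 windows (2.26%). Among measured genes of the array with a window the share was 4.42% (477 of 10784). It was 26.2% (22 of 84) for the genes of the other replication and G1/S lists described below, and 5.26% (1 of 19) for a list of mitosis genes. The words did not sort the genes by their call. They stood in 5 of 11 genes called higher, 10 of 28 genes not called and 1 of 2 genes called lower. The 28 include Cdc45, Cdk6 and Chek1, which were not measured and held no word. Ccnd2, Ccnd1 and Pole, also called higher, had no window. A word is a description of letters, and binding was not measured.

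**Figure D1:**
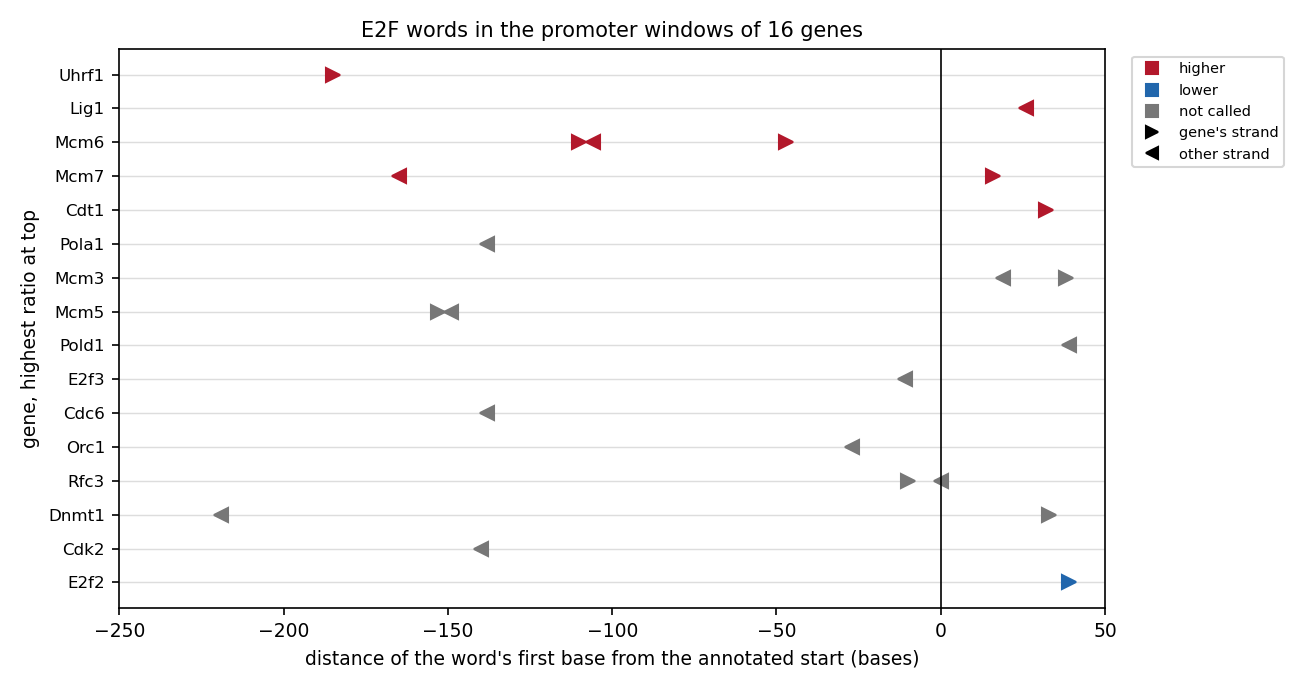
E2F words in the promoter windows of the 16 genes that held any; the x axis is the distance of the word's first base from the annotated start in bases, genes run from the highest colon over blood ratio at the top to the lowest, arrowheads point along the strand of the word, and colour gives the call. The words of Mcm6 and Mcm5 lie before the start, those of Mcm3, Lig1, Cdt1, Pold1 and E2f2 after it, and genes called higher and not called both hold them.

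Promoter words other than E2F words had other shares in the replication genes and the mitosis genes. The letters CCAAT, the word bound by the factor NF-Y, stood on either strand in 61% of the 41 genes, in 89.5% of the 19 mitosis genes and in 41.1% of all genes with a window. Among measured genes with a window the share for CCAAT was 42.3%. The cell cycle homology word TTTGAA, known from promoters of genes active in G2 and mitosis, stood in 14.6% of the 41 genes and in 73.7% of the mitosis genes. It stood in 20.2% of all genes and in 14.8% of measured genes with a window, so the 41 genes lay near the measured share. It was in 0 of the 11 genes called higher, in windows of this length, and 11 genes are too few to read a difference from.

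Of the 52 genes 48 were measured, 46 of them in both pools. Orc1 and Cdc6 were measured through the colon pool alone, and Cdc45, Ccne2, Cdk6 and Chek1 were not measured. Of the 48, 14 were called higher (29.2%), where 14.2% of all 15680 measured genes were, and 2 were called lower (4.17%), where 4.46% of all were. The other 32 were not called. Among the 13277 genes of the array measured in both pools, 12.9% were higher and 5.05% lower. The median log2 ratio was 0.63 over the 48 genes and 0.57 over all 52, and 0.06 over all measured genes. The ratio was above 0 for 39 genes and below it for 9, where 54.3% of all measured genes were above 0. Genes called higher lay between 1.07 and 3.36, and the largest SD among them was 0.16. Genes not called reached up to 1.11, because a gene had to pass on each array. How the arrays are scaled moved these counts. With each array centred on its median in place of loess, all measured genes shifted to a median of -0.28. Then 7 of the 48 genes were higher (against 7.26% of all) and 2 lower (against 3.56%). With the scanner software's own ratios the median of all genes was -0.12, and 16 were higher (against 20.3% of all) and 3 lower (against 13.3%). The median of the 48 genes lay above that of all genes by 0.56 with loess, 0.55 with median centring and 0.67 with the software's ratios. Ratios above 0 were found for 31 of the 48 with median centring (against 35.9% of all). With the software's ratios they were found for 35 of the 48 (against 45.1%).

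**Figure D2:**
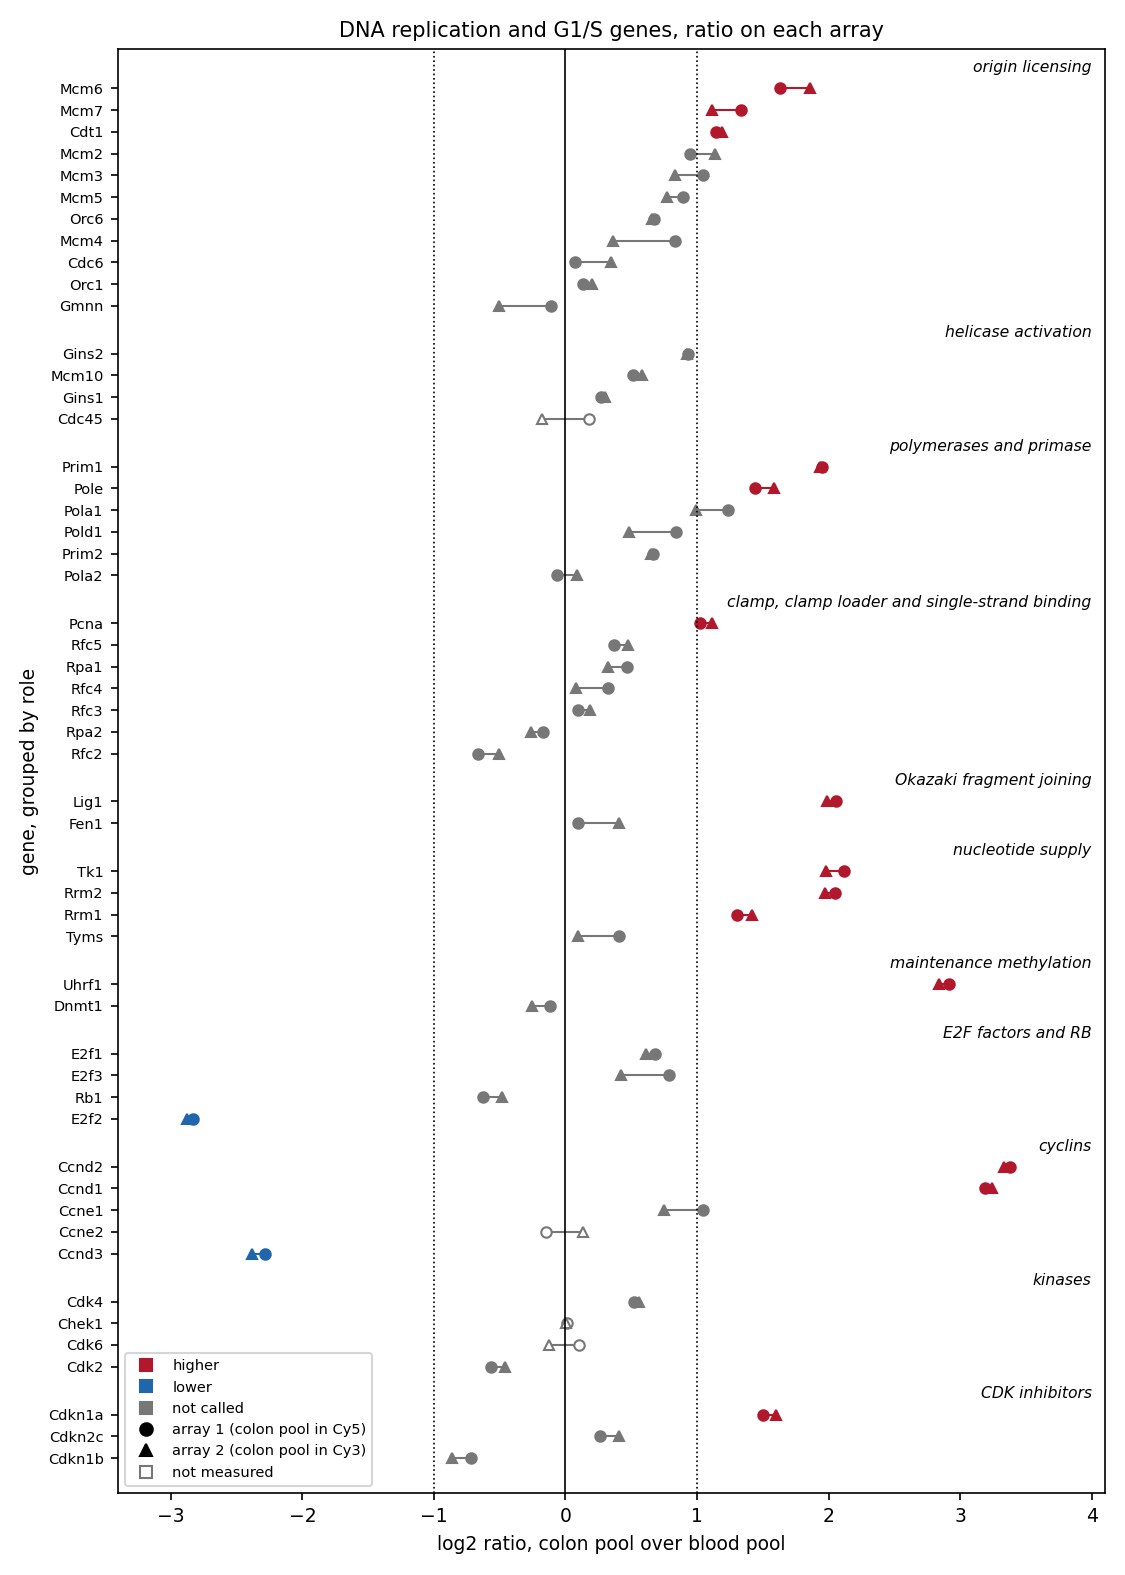
Colon over blood log2 ratio on each array for all 52 genes, grouped by role; circles are array 1 (colon pool in Cy5), triangles array 2 (colon pool in Cy3), open symbols genes not measured, and dotted lines the 2-fold thresholds. The 14 genes called higher lie right of the threshold on both arrays, E2f2 and Ccnd3 left of it, and the largest gap between arrays among measured genes is that of Mcm4.

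Licensing genes leaned towards the colon pool, with 3 of 11 called higher, 0 lower and a median of 0.83. Mcm6, a subunit of the replicative helicase, had 5149 and 5028 in the colon pool on arrays 1 and 2, against 1659 and 1387 in the blood pool. That is a log2 ratio of 1.75 ± 0.16. Mcm7, another subunit, had 1065 and 906 in the colon pool, against 422 and 418 in the blood pool, a ratio of 1.23 ± 0.15. Cdt1, the loading factor that brings the helicase to origins, had 5986 and 5767 in the colon pool, against 2701 and 2532 in the blood pool, a ratio of 1.17 ± 0.03. In these 3 genes the colon values lay above the blood values on both arrays, which the call itself requires. All 3 calls were lost with median centring, where Mcm6 stood at 1.04, Mcm7 at 0.65 and Cdt1 at 0.44.

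The remaining helicase subunits also had ratios above 0. Mcm2 gave 285 and 275 in the colon pool, against 147 and 125 in the blood pool, and its ratios of 0.95 and 1.14 on arrays 1 and 2 straddle the threshold. Mcm3 gave 2216 and 2002 in the colon pool, against 1074 and 1126 in the blood pool, a ratio of 0.94 ± 0.15, and its other, dimmer probe gave 1.12. Mcm5 stood at 0.83 ± 0.08 and Mcm4 at 0.60 ± 0.33, which turned to -0.07 with median centring. The 6 subunits form 1 ring, and their ratios ranged over more than the SDs between arrays, from 0.60 for Mcm4 to 1.75 for Mcm6. Of the loading factors, Orc6, a subunit of the origin recognition complex, stood at 0.66 ± 0.01. Its partner subunit Orc1 was dim in both pools (91.5 and 75.7 in the colon pool, 83.6 and 65.9 in the blood pool), with 0.16 ± 0.05 here and 1.18 with the software's ratios. Cdc6, which loads the helicase together with Cdt1, had 89.6 and 88.4 in the colon pool and did not clear the background in the blood pool on either array. For Cdc6 the lowest signal counted as above background gave no separate bound. Its ratio was 0.21 ± 0.19 (1.16-fold), with 0.08 on array 1 and 0.34 on array 2. Gmnn, which encodes geminin, the inhibitor of Cdt1, was the only licensing gene below 0, at -0.31 ± 0.28.

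Genes that switch the loaded helicase on were not called. Gins2, a subunit of the GINS complex, was the highest at 0.93 ± 0.01, with 200 and 173 in the colon pool, against 105 and 91.3 in the blood pool. Mcm10 stood at 0.55 ± 0.05 and Gins1 at 0.29 ± 0.02, which turned to -0.04 with median centring and to -0.03 with the software's ratios. Cdc45, which completes the active helicase, was above background on 1 array in each pool and gave no usable ratio.

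Primase and the polymerases that extend from its primers had 2 of 6 genes called higher, 0 lower and a median of 0.89. Prim1, the catalytic subunit of primase, had 503 and 404 in the colon pool, against 130 and 106 in the blood pool, a ratio of 1.94 ± 0.01. Pole, the catalytic subunit of the leading-strand polymerase, had 260 and 236 in the colon pool, against 95.8 and 78.3 in the blood pool, a ratio of 1.51 ± 0.11. The other Pole probe was not above background and gave -0.13. For Prim1 and Pole the colon pool was the brighter on each array, which the call itself requires. Pola1, the catalytic subunit of the polymerase that works with primase, missed the threshold on array 2 alone, with 410 and 377 in the colon pool against 174 and 190 in the blood pool and a mean ratio of 1.11 ± 0.18. Prim2, the large primase subunit, and Pold1, the catalytic subunit of the lagging-strand polymerase, stood at 0.66 ± 0.01 and 0.66 ± 0.25. Pola2, the accessory subunit partnered with Pola1, stood at 0.01 ± 0.11.

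The sliding clamp, its loader and the single-strand binding proteins had the lowest median among the groups of replication fork proteins, 0.20 over 7 genes. Only the clamp itself was called: Pcna had 6570 and 6432 in the colon pool, against 3236 and 2975 in the blood pool, a ratio of 1.07 ± 0.06. This call was lost with median centring (0.33) and with the software's ratios, where the mean hardly moved (1.01). The file lists further predicted transcripts for the Pcna probe, so signal from a near-identical copy cannot be told apart. Clamp loader subunits went both ways in sign and stayed under 2-fold: Rfc5 at 0.42 ± 0.08, Rfc4 at 0.20 ± 0.17, Rfc3 at 0.14 ± 0.06 and Rfc2 at -0.59 ± 0.11. Of these, Rfc5 turned to -0.19 and Rfc4 to -0.38 with median centring, and Rfc3 turned to -0.25 and Rfc4 to -0.02 with the software's ratios. The single-strand binding subunits Rpa1 and Rpa2 stood at 0.39 ± 0.10 and -0.22 ± 0.07, and Rpa1 turned to -0.32 with median centring.

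Lig1, the ligase that seals Okazaki fragments, was called higher and Fen1, the nuclease that trims them, was not. Lig1 had 1484 and 1239 in the colon pool, against 356 and 313 in the blood pool, a ratio of 2.02 ± 0.05. With median centring its mean was 1.45 and it was no longer called, since a call asks for 2-fold on each array. Fen1 had 1942 and 2023 in the colon pool, against 1822 and 1522 in the blood pool, a ratio of 0.25 ± 0.23 that turned to -0.43 with median centring.

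Nucleotide supply had the highest share of calls among the groups of replication enzymes, with 3 of 4 genes higher, 0 lower and a median of 1.69. Tk1, the cytosolic thymidine kinase of the salvage pathway, had 565 and 416 in the colon pool, against 130 and 105 in the blood pool, a ratio of 2.05 ± 0.09. Rrm2, the subunit that limits ribonucleotide reductase in cycling cells, had 561 and 444 in the colon pool, against 135 and 113 in the blood pool, a ratio of 2.01 ± 0.06. Rrm1, the large subunit of the same enzyme, had 526 and 499 in the colon pool, against 213 and 186 in the blood pool, a ratio of 1.36 ± 0.09 that was 0.94 and no longer called with median centring. All 3 were above the blood pool on both arrays, which the call itself requires. Tyms, which makes thymidylate from deoxyuridylate, was dim, with 132 and 102 in the colon pool against 99.8 and 95.3 in the blood pool, and stood at 0.25 ± 0.22.

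Among the genes that copy DNA methylation behind the fork, Uhrf1 and Dnmt1 differed. Uhrf1, which recognises hemimethylated DNA and recruits the methyltransferase, had 696 and 553 in the colon pool, against 92.3 and 77.1 in the blood pool. Its ratio of 2.88 ± 0.05 was the third highest of the 52 genes, and its value was 4.18 with the software's ratios. A second, dimmer Uhrf1 probe was not measured and gave 0.24. Dnmt1, the maintenance methyltransferase, stood at -0.18 ± 0.09, with 240 and 218 in the colon pool against 261 and 259 in the blood pool.

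D-type cyclins were called in both directions. Ccnd2 was the highest of all 52 genes, with 2068 and 1748 in the colon pool against 198 and 174 in the blood pool, a ratio of 3.36 ± 0.04 or 10.2-fold. Its probe, shown because it carries that value, lies on the minus strand of the mm9 build and was not placed in a gene feature here, since no mm9 annotation was used.
Ccnd2 probe (chr6:127098696-127098755): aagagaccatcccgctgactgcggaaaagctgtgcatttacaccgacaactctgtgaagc
Ccnd1 followed, with 2115 and 1995 in the colon pool, against 231 and 210 in the blood pool, a ratio of 3.22 ± 0.04. Ccnd3, which also activates Cdk4 and Cdk6, was called lower, with 7434 and 5141 in the colon pool against 36184 and 26758 in the blood pool, a ratio of -2.33 ± 0.07. Its second probe gave -2.74. The 3 D-type cyclins kept their calls under the loess, median-centred and software scalings. Ccne1, which activates Cdk2 late in G1, reached 0.90 ± 0.21, and Ccne2 was not above background in either pool on any array.

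**Figure D3:**
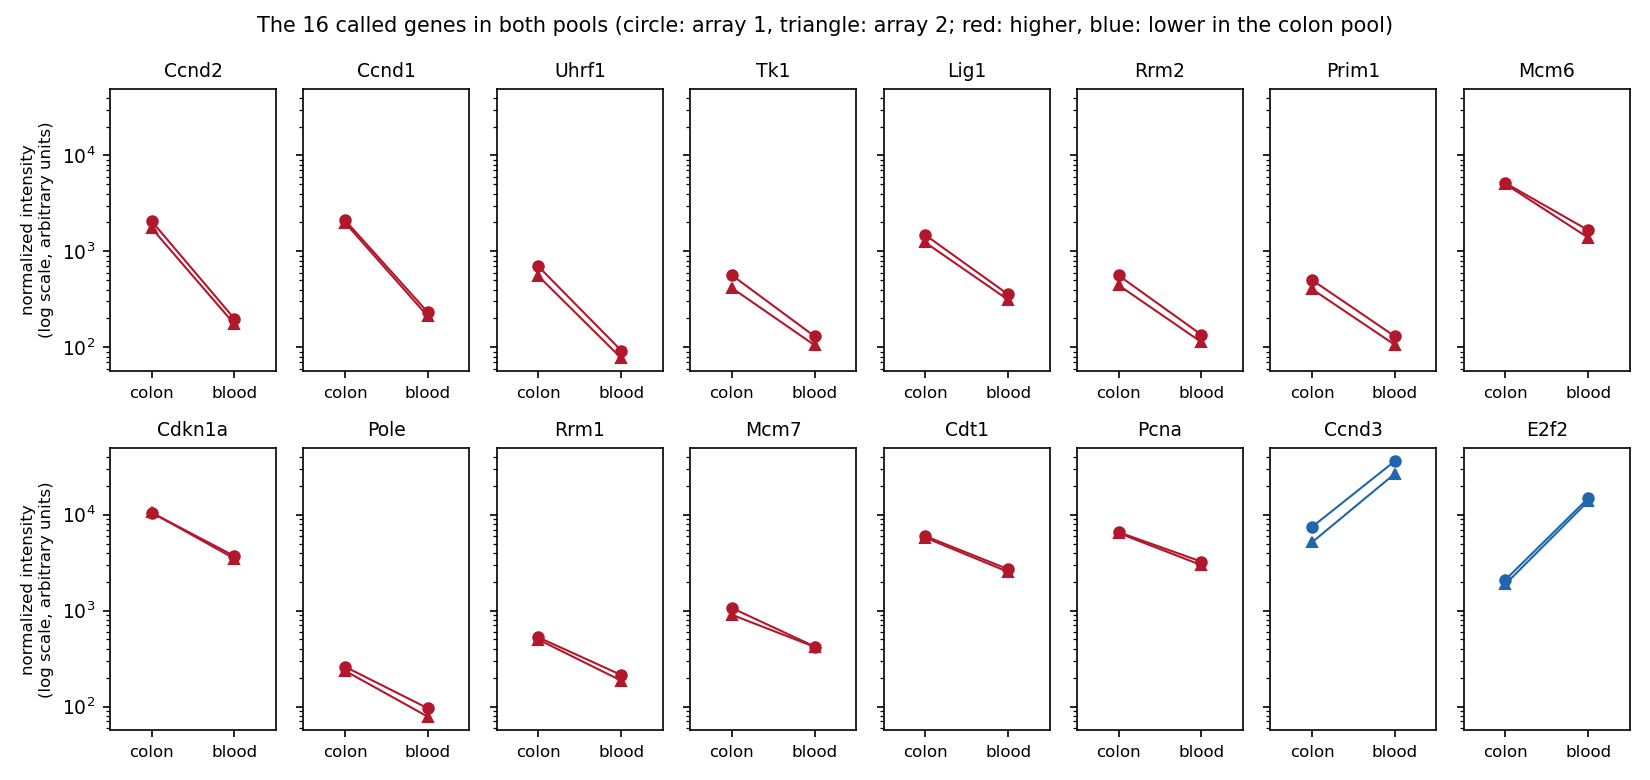
Normalized intensity (log scale, arbitrary units) of the 16 called genes in the colon pool and the blood pool; circles are array 1, triangles array 2, lines join the pools of 1 array, red marks genes called higher and blue genes called lower. Lines of both arrays run nearly parallel, and Ccnd3 and E2f2 slope upwards to the blood pool.

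The transcription factors at this step went different ways. E2f2, grouped with the activator E2Fs, was the lowest of all 52 genes, with 2093 and 1885 in the colon pool against 14857 and 13832 in the blood pool. That is a log2 ratio of -2.85 ± 0.03, or 7.22-fold higher in the blood pool. E2f1 stood at 0.65 ± 0.05 and E2f3 at 0.60 ± 0.26, both under 2-fold. Rb1, the retinoblastoma protein that binds them, stood at -0.55 ± 0.10. Its probe was printed in 10 spots, which ranged from -0.66 to -0.57 on array 1 and from -0.54 to -0.39 on array 2.

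The kinases themselves were not called. Cdk4, the partner of D-type cyclins, had 4161 and 3990 in the colon pool, against 2900 and 2711 in the blood pool, a ratio of 0.54 ± 0.03 that turned to -0.18 with median centring. Cdk2, the partner of E-type cyclins, stood at -0.51 ± 0.07, and at -1.31 with the software's ratios, where it was called lower. Cdk6 was above background on 1 array in the colon pool and on 0 in the blood pool. Chek1, the kinase that answers stalled forks, was not above background in either pool on any array.

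CDK inhibitors had 1 of 3 genes called higher and 0 lower. Cdkn1a, a target of p53 that also binds Pcna, had 10484 and 10538 in the colon pool, against 3699 and 3481 in the blood pool, a ratio of 1.55 ± 0.07. Its 10 spots lay between 1.45 and 1.53 on array 1 and between 1.56 and 1.64 on array 2, and its other, dim probe gave 0.89 and 1.11 on arrays 1 and 2. With median centring it was at 0.80 and not called. Cdkn1b, an inhibitor abundant in resting cells, had 2345 and 2169 in the colon pool, against 3847 and 3935 in the blood pool, a ratio of -0.79 ± 0.10, and Cdkn2c, an inhibitor of Cdk4 and Cdk6, stood at 0.34 ± 0.10.

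Further genes of origin licensing, the fork and nucleotide supply, outside the 52, did not share the lean towards the colon pool. For comparison, 14.2% of all measured genes were higher and 4.46% lower. Of 13 other measured genes of origin licensing and firing 0 were higher and 1 lower, Mcmbp, a binding partner of Mcm proteins, at -1.13 ± 0.11 (median -0.24). Of 15 other fork genes 2 were higher, Top1, the topoisomerase that relaxes DNA ahead of the fork, at 1.61 ± 0.51 and Chtf18, of an alternative clamp loader, at 1.41 ± 0.08. The helicase and nuclease Dna2 was the 1 fork gene called lower, with 102 and 148 in the colon pool against 1025 and 1025 in the blood pool, a ratio of -3.06 ± 0.38 (list median 0.02). Of 15 other nucleotide genes Impdh2, of guanine nucleotide synthesis, was higher at 1.39 ± 0.08. Samhd1, which breaks down deoxynucleotides, was lower, with 5221 and 3601 in the colon pool against 33400 and 27973 in the blood pool, a ratio of -2.82 ± 0.20 (list median -0.02).

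Over genes of chromatin assembly and modification at the fork the median was 0.39, and 0.53 over the 9 measured in both pools. Of the 10 measured genes 3 were higher and 0 lower. The 3 were histone chaperones or chaperone subunits, Chaf1b at 1.92 ± 0.02, Asf1b at 1.40 ± 0.08 and Nasp at 1.26 ± 0.03. Checkpoint and recombination genes had 1 of 15 higher, Rad51ap1 at 1.19 ± 0.12, and 0 lower (median 0.16). Of the 15, 4 were measured through the colon pool alone, and over the 10 measured in both pools the median was -0.08. In the rest of the E2F and RB network 2 of 15 were higher, the transcription factor Myc at 1.46 ± 0.11 and Lin54, a DNA-binding subunit of the DREAM complex, at 1.40 ± 0.05, and 0 were lower (median -0.16). Among 13 other G1/S regulators 3 were higher and 1 lower (median 0.04). Of the 13, 3 were measured through the colon pool alone, and over the 10 measured in both pools the median was -0.06. The inhibitor Cdkn1c stood at 2.02 ± 0.0035 and Cks1b, a subunit bound to cyclin-dependent kinases, at 1.34 ± 0.04. Ccna2, the cyclin of S phase, had 241 and 187 in the colon pool and did not clear the background in the blood pool on either array. Its ratio was 1.59 ± 0.04, or 3.00-fold. Cdkn2d, an inhibitor of Cdk4 and Cdk6, was lower, with 1898 and 1970 in the colon pool against 8151 and 8311 in the blood pool, a ratio of -2.09 ± 0.02. With median centring Dna2, Samhd1 and Cdkn2d were still called lower. Ccna2 alone of these genes was still called higher, and it was measured through the colon pool alone, so it could not be called lower. No gene of these lists measured in both pools was called higher with median centring.

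Mitosis genes, which act after replication, leaned further. Of 21 genes 18 were measured, 7 of them through the colon pool alone, and these could only be measured where the colon pool was bright enough. Of the 11 measured in both pools the median log2 ratio was 1.70, against 0.65 for the 46 replication and G1/S genes measured in both pools. The proliferation marker Mki67 had 4780 and 4338 in the colon pool, against 302 and 282 in the blood pool. Birc5 at 3.36 ± 0.07, Cenpe at 2.24 ± 0.15 and Cenpa at 2.11 ± 0.09 came next. Of the 11 measured in both pools 7 were called higher with loess, 4 with median centring and 7 with the software's ratios, with 0 lower each time. The difference between the lists has no test, and both were listed with earlier results of these data known.

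**Figure D4:**
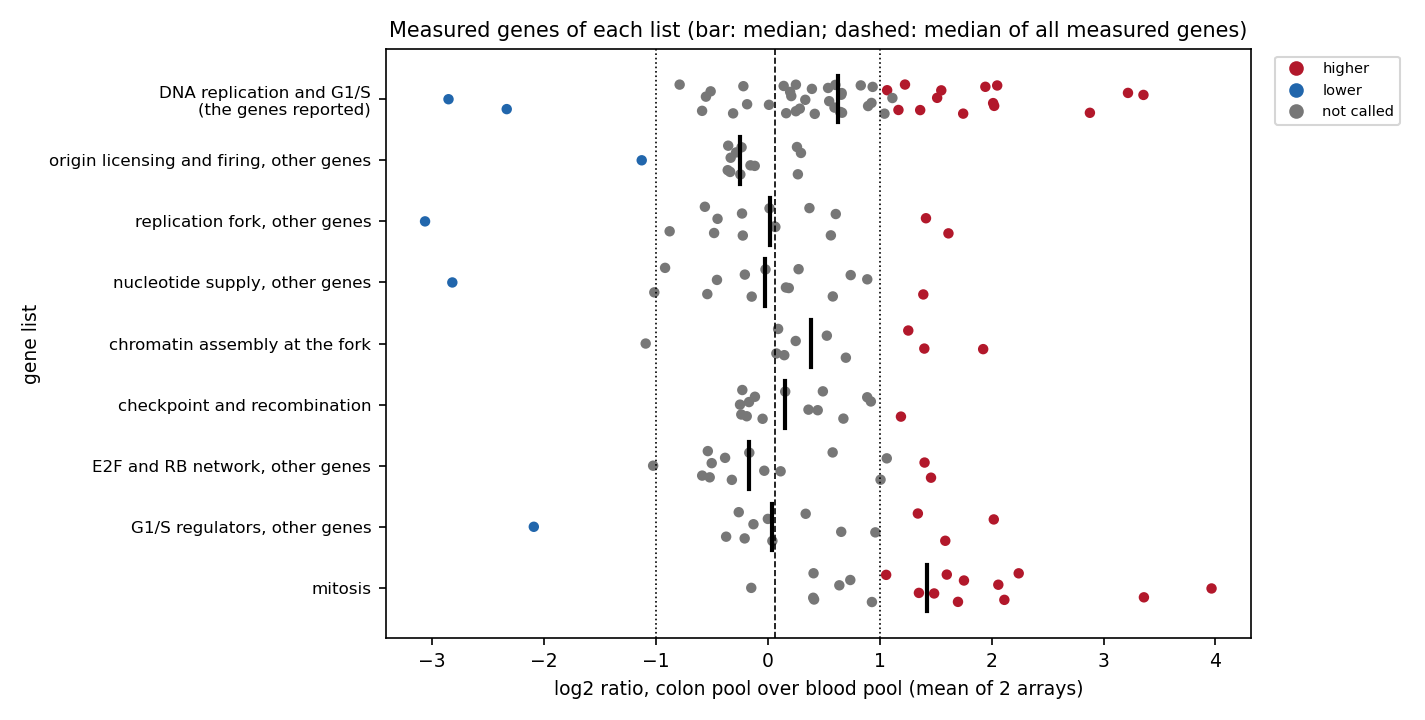
Colon over blood log2 ratio (mean of both arrays) for the measured genes of the 52 and of 8 related lists; each point is a gene coloured by call, bars are list medians, the dashed line is the median of all measured genes (0.06) and dotted lines are the 2-fold thresholds. The mitosis median (1.42) is over 18 genes of which 7 were measured through the colon pool alone; over genes measured in both pools the medians are 1.70 for mitosis and 0.65 for the 52 genes. The medians of the other lists lie between -0.24 and 0.39.

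Markers of several cell types also differed between the pools, some higher and some lower in the colon pool. Some markers were measured through the colon pool alone and could not be called lower, and the counts below include them unless they name both pools. Macrophage markers had 7 of 9 measured genes higher and 0 lower (summed intensity 376618 and 372867 in the colon pool, 73208 and 83272 in the blood pool). All 6 measured Ly6C-high monocyte markers were lower (21676 and 14351 in the colon pool, 521406 and 327928 in the blood pool), and Ly6c2 was not used here. B and plasma cell markers had 7 of 8 higher and 0 lower (36460 and 34842 in the colon pool, 2515 and 2388 in the blood pool), with Jchain at 5.18 ± 0.22, and with median centring 4 of 8 were higher. T cell markers had 7 of 9 higher and 0 lower (7107 and 5693 in the colon pool, 1989 and 1504 in the blood pool), and epithelial markers also 7 of 9 higher (7274 and 6021 in the colon pool, 970 and 746 in the blood pool). Of the epithelial markers 5 were measured through the colon pool alone, and of the 4 measured in both pools 3 were higher and 0 lower. All 6 fibroblast markers were higher (112152 and 113295 in the colon pool, 1181 and 1080 in the blood pool). Of 5 markers of crypt base epithelium, where dividing stem cells lie, Lgr5 and Axin2 were not above background in either pool on any array, Smoc2 was higher and Ascl2 was lower, a call lost with median centring. Sox9, the remaining marker, had 86.5 and 84 in the colon pool and did not clear the background in the blood pool on either array. Its ratio was 0.31 ± 0.12, and 2.53 with the software's ratios, where it was called higher. Endothelial markers had 2 of 5 higher and mast cell markers 2 of 4 (3 of these 4 measured through the colon pool alone), and dendritic cell markers 1 higher and 1 lower of 5. Neutrophil markers had 0 higher and 4 lower of 7 (9691 and 7268 in the colon pool, 100263 and 69648 in the blood pool). The 4 were S100a8, S100a9, Cxcr2 and Mmp8. In the blood pool S100a9 alone had 72521 and 46195, and S100a8 had 21722 and 17740. The neutrophil markers Elane, Mpo and Camp were not called, at 0.47, -0.27 and -0.33. The part of these cells in the ratios of the replication and G1/S genes was not tested. In pooled bulk RNA a larger number of cells of a type and more RNA per cell cannot be told apart.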

How the data were processed

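Total RNA of 2 pools of mouse cells, 25 ng each, was amplified from an oligo-dT primer, labelled with Cy3 or Cy5 and read on 2 Agilent mouse arrays, each holding both pools, with the dyes swapped, per the labels' protocols. Both arrays name the same pools and were counted as 1 replicate; they lie on 1 slide with 1 scan time, so no batch could be compared. The deposited scanner files give each spot's mean intensity and the median intensity of its surroundings, not normalized, the log10 ratio of red over green after the software's own detrending and dye normalization, and flags for spots above background, per the file headers. The software was Agilent Feature Extraction, of which the headers name version 10.7.3.1 and the submitters' processing notes 10.5.1.1. Its log10 ratios recur in the deposited value table, which holds them as colon over blood, within 4.81e-08. Probe positions are on mm9, per the file headers.

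Intensities were corrected by normexp with an offset of 50 and normalized by loess within each array, with weight 0 for outlier and control spots (limma 3.58.1, R 4.3.3). Of 44397 spots 43020 were not controls. Spots of a probe were averaged to 39424 probes, the ratio of array 2 was turned to colon over blood, and the probe of highest mean intensity gave a gene's value. Across all measured genes, which are not independent replicates, the ratios of both arrays had Pearson's r = 0.968. With 1 replicate, genes were called by size alone. The number of arrays limits the precision. Where a pool was not well above background on both arrays, a bound was computed after loess and Aquantile scaling as the bright pool's mean log2 signal minus the mean of, on each array, the higher of the dim probe's signal and the lowest signal well above background. For Cdc6 and Ccna2 the bound equalled the plain ratio. The method was tested on simulated data.

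The 52 genes, the lists of related genes and the markers were chosen with earlier results of these data known. All 52 genes are accounted for by role, and called genes are given in each pool on each array. Of each related list up to 4 called genes in each direction, those of largest size, are named. Mcm2, Mcm3, Pola1 and other genes that were not called were given intensities after their values were seen. Alternatives tried were other background corrections and offsets, median centring, the software's ratios, Aquantile scaling, the value table, averaging a gene's probes, other filters, each array alone and other fold thresholds.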

Additional observations from a re-analysis of the deposited data

How the results depend on the processing

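E2f2 and Ccnd3 were called lower under each of the 13 alternatives tried, and the count of genes called lower was 2 or 3. The third was Cdk2 with the software's ratios and the value table, and Cdkn1b at a 1.5-fold threshold. Of all measured genes 4.46% were lower as reported, 3.56% with median centring and 13.3% with the software's ratios. Several of the 13 could not lose the calls of E2f2 and Ccnd3. The value table repeats the software's ratios, and filters cannot lose genes above background in both pools on each array. A call on both arrays also holds on each array alone and at 1.5-fold. The count called higher, 14 as reported, was 7 with median centring, 23 at a 1.5-fold threshold and 3 at a 4-fold threshold. It lay between 14 and 17 under the other alternatives. Of all measured genes 14.2% were higher as reported, 7.26% with median centring and 20.3% with the software's ratios. The share was 15.5% without background correction and 17.2% with an offset of 16. No share over all genes is given at the 1.5-fold and 4-fold thresholds, so those 2 counts have no comparison. Median centring lost Cdt1, Mcm6, Mcm7, Pcna, Lig1, Rrm1 and Cdkn1a. It leaves out the correction for dye effects that vary with intensity: the median of all genes was 0.33 on array 1 and -0.96 on array 2. With the software's ratios and the value table Pcna was lost and Mcm2, Gins2 and Pola1 were gained. The median of the measured genes, 0.63 as reported, was 0.73 with an offset of 16, 0.27 with median centring, 0.55 with the software's ratios and 0.55 with the value table. With each array left out in turn the median was between 0.57 and 0.68, the count called higher between 15 and 17 and the count called lower 2 and 2. Aquantile scaling leaves ratios within an array as they are, so it could not move these values. With median centring 8 genes not called turned below 0 (Mcm4, Gins1, Rfc4, Rfc5, Rpa1, Fen1, Cdk4 and Cdkn2c), and with the software's ratios 4 did (Gins1, Pola2, Rfc3 and Rfc4). The median of all measured genes was itself below 0 there, at -0.28 with median centring and -0.12 with the software's ratios. Of the 48 genes 38 lay above the median of all genes with loess, 36 with median centring and 37 with the software's ratios. Ratios of genes near background, such as Orc1, Cdc6, Tyms and Pole, are held towards 0 by the offset. No paired analysis was possible because both arrays hold the same 2 pools and no test was run.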
